A study of Homo sapiens with 16 samples.

Results

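The genes described here are 10 genes of epithelial-mesenchymal transition (EMT) and cell adhesion, measured in single cells of mouse mammary tumors. They are the epithelial surface and junction genes Epcam and Cdh1, the cadherin gene Cdh2, the intermediate filament gene Vim, and the transcription factor genes Zeb1, Zeb2, Snai1, Snai2, Twist1 and Twist2. The rule that defines them is a list of names and uses no measured value, although the list was drawn up with earlier results of these data known, and all 10 are among the 32285 genes of the deposited count tables.

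In EMT an epithelial cell gives up its E-cadherin junctions and takes on the shape, filaments and motility of a mesenchymal cell. The Zeb, Snai and Twist factors bind E-box sequences; the Zeb and Snai proteins are known to repress Cdh1, which encodes E-cadherin. Cells can also hold epithelial and mesenchymal genes side by side, and in the mammary gland Snai2 (Slug) is known as a gene of basal epithelial cells. Fibroblasts carry Vim and several of these factors as part of their normal programme. The 2 clusters deposited as cancer-associated fibroblasts (CAF) serve here as a mesenchymal reference level within the same tumors, and their names are checked below.

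Pieces of LPA1-T22 (T22) or LPA1-T127 (T127) tumors had been placed in the mammary fat pad of female FVB mice bought at 6 weeks of age. Both tumors come from mice with an LPA1 receptor transgene expressed in the mammary epithelium, and each stands for a single tumor line with an intact host immune system. The short-term T22 group is 4 pools of T22 tumors and the short-term T127 group 4 pools of T127 tumors, each mixing vehicle with olaparib, a PARP inhibitor given by mouth at 50 mg/kg daily, for 4 or 8 days. The long-term group is 8 pools that mix tumors of both lines after 20 days of vehicle or olaparib, grown alone or with T22 and T127 on opposite sides of a mouse. The tumors were tagged before pooling, but no file used here linked a cell to its tumor, so vehicle and olaparib were not compared and every group below mixes them. Each experiment therefore counts as 1 sample with repeated captures (pools), no p-value was computed, and the 95% intervals cover counting error only.

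The pools held 34755906 to 55600377 unique molecular identifiers (UMIs, each marking a captured mRNA). In the long-term group, 3939 barcodes occurred in both pool 1 and pool 2, 987 in pools 1 and 3, and 1082 in pools 2 and 3, against 1 to 8 in any of the remaining 25 pairs. Each shared barcode was counted once at its deepest copy, which left 25723 of 30845 long-term cells beside 15094 short-term T22 and 8007 short-term T127 cells. The labels name the organism as human, but the deposited gene symbols are those of mouse and the processing notes name GRCm38.

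The cell clusters are those the authors deposited, and the study assigned Malign_0 and Malign_1 to T127 and Malign_2 and Malign_3 to T22. Without exception, malignant cells of the short-term T22 pools were labelled Malign_2 or Malign_3, and those of the short-term T127 pools Malign_0 or Malign_1. The long-term cells kept were 2809 of Malign_0, 1794 of Malign_1, 1352 of Malign_2, 907 of Malign_3, 726 of i_CAF and 117 of my_CAF, the inflammatory and myofibroblastic CAF labels. The short-term T22 pools held 1736 Malign_2, 218 Malign_3, 291 i_CAF and 129 my_CAF cells, and the short-term T127 pools 2515 Malign_0, 2363 Malign_1, 95 i_CAF and 8 my_CAF cells. The study had clustered these same cells by their transcripts, called malignant cells by inferred copy number and named the others by marker genes, so differences between clusters are given as descriptions. Levels are UMIs of a gene summed over a cluster per 1000000 UMIs of that cluster (CPM).

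The labels were checked against marker genes in the long-term pools. The summed level of 6 fibroblast markers was 35158 CPM in i_CAF (30788 to 38857 over pools), and that of 6 pericyte or smooth muscle markers 13084 CPM in my_CAF (8243 to 15806), where the fibroblast list was 5281 CPM (i_CAF 313 CPM for the pericyte or smooth muscle list). My_CAF held the pericyte gene Rgs5 at 4203 CPM and the collagen genes Col1a1, Col1a2 and Col3a1 at 1208, 1353 and 2581 CPM. Its Dcn, Pdgfra and Lum were at only 124, 4.04 and 10.8 CPM, against 6544, 323 and 1059 CPM in i_CAF. The name my_CAF is therefore used here as a deposited label, not as a fibroblast identity. The 7 epithelial markers, to which Epcam and Cdh1 belong, summed to 9387 CPM in Malign_3 and 4016 CPM in Malign_2. In Malign_0 and Malign_1 they summed to 1342 and 998 CPM, nearly all of it from the simple-epithelium keratins Krt8 (735 and 480.2 CPM) and Krt18 (597 and 499 CPM). The whole list summed to 69.7 CPM in i_CAF, so T127 malignant cells held keratin transcripts above the CAF level with very little Epcam and Cdh1. They also held the fibroblast marker Dcn, at 4305 CPM in Malign_0 and 4324 CPM in Malign_1, but Col1a1 at only 3.92 and 6.53 CPM.

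T22 and T127 malignant cells, each summed, differed by 4-fold or more in 9 of the 10 genes, where 18.5% of all genes with at least 5 CPM on either side did so in the long-term and 20.6% in the short-term pools. Epcam, Cdh1 and, in Malign_2, Snai2 were higher in T22 cells, whereas Vim, Twist1, Snai1, Zeb1, Zeb2 and Cdh2 were higher in T127 cells. T22 cells still held Vim, at 1356 CPM in Malign_2 and 349 CPM in Malign_3 of the long-term pools. Twist2 was close to 0 in all 4 malignant clusters and present in both CAF clusters. The plot of levels by pool shows each pool as a point.

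**Figure D1:**
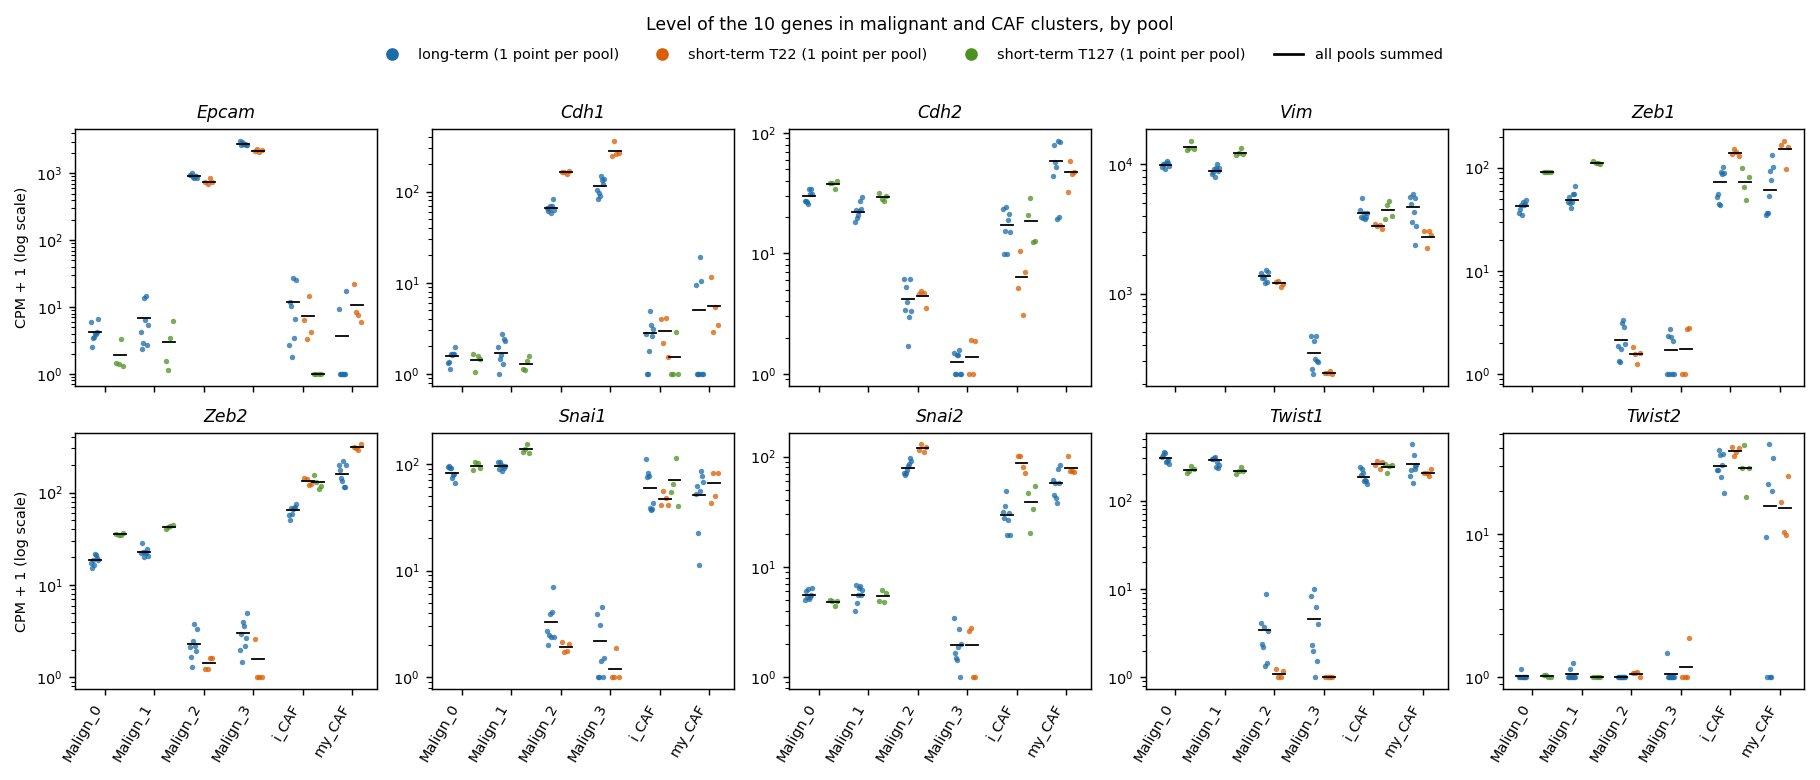
Level of each of the 10 genes in CPM + 1 on a log scale (vertical axis) in the 4 malignant and 2 CAF clusters (horizontal axis), with 1 point per pool, colored by experiment, and a bar at the level of all pools summed (the 8 short-term T127 my_CAF cells are not drawn). Epcam and Cdh1 are high in Malign_2 and Malign_3, Snai2 is high in Malign_2 but not in Malign_3, and Twist2 lies near 0 in all malignant clusters.

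Epcam encodes an adhesion protein of epithelial surfaces. In the long-term pools it reached 2779.7 CPM in Malign_3 (95% interval 2754 to 2806), with a lowest, median and highest pool of 2619.6, 2732 and 3074 CPM. In Malign_2 it was 922 CPM (909 to 934), and its pools ran from 861 over 914 to 1004 CPM. The pools of these clusters did not overlap each other. In Malign_0 it was 3.30 CPM (1.57, 3.03 and 5.68 CPM for the lowest, median and highest pool) and in Malign_1 5.87 CPM (1.34, 3.82 and 13.7 CPM), within the pool range of i_CAF, at 11.0 CPM (0.776 to 26.7 CPM). The short-term T22 pools 1 to 4 gave 735, 682, 844 and 742 CPM in Malign_2 and 2127, 2297, 2071 and 2213 CPM in Malign_3. In all 4 of those pools Malign_3 lay above Malign_2. The short-term T127 pools gave 0.475, 0.430, 2.38 and 0.312 CPM in Malign_0, and no Epcam UMI was found in their i_CAF cells, which allows up to 1.56 CPM (3 UMIs, the limit used here for a count of 0).

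Cdh1 was likewise higher in the T22 clusters than in the T127 clusters and CAFs. In the long-term pools it was 113 CPM in Malign_3 (81.6, 112 and 147 CPM for the lowest, median and highest pool) and 65.1 CPM in Malign_2 (56.6, 64.3 and 82.0 CPM). These pool ranges touch, since the lowest Malign_3 pool lay just under the highest Malign_2 pool. Malign_0 held 34 Cdh1 UMIs (0.560 CPM), Malign_1 28 (0.709 CPM), i_CAF 19 (1.79 CPM) and my_CAF 3 (4.04 CPM, 95% interval 0.833 to 11.8). The short-term T22 pools 1 to 4 gave 162, 161, 154 and 166 CPM in Malign_2 and 247, 359, 259 and 263 CPM in Malign_3. Every one of these short-term pools lay above every long-term pool of the same cluster.

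Cdh2 encodes N-cadherin, the cadherin of many mesenchymal and neural cells. Its level in the long-term pools was 57.9 CPM in my_CAF (18.3, 54.2 and 85.1 CPM for the lowest, median and highest pool), 29.0 CPM in Malign_0 (24.9, 28.2 and 33.2 CPM), 21.0 CPM in Malign_1 (17.1, 21.7 and 28.5 CPM) and 16.1 CPM in i_CAF (8.90, 16.0 and 23.3 CPM). Each of these neighbours overlapped in its pool range. Malign_2 was at 3.15 CPM (74 UMIs; pools 0.707 to 5.13 CPM), apart from the 4 clusters above it, and Malign_3 held only 4 Cdh2 UMIs (0.253 CPM). The short-term T127 pools gave 37.5, 37.1, 33.2 and 38.7 CPM in Malign_0 and 30.5, 27.5, 26.0 and 28.7 CPM in Malign_1, so Malign_0 exceeded Malign_1 in each of them.

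Vim encodes vimentin, the intermediate filament protein of mesenchymal cells and leukocytes. It was 9947 CPM in Malign_0 (9153, 10059 and 10532 CPM for the lowest, median and highest long-term pool) and 8820.5 CPM in Malign_1 (7957, 8991 and 10108 CPM). Both exceeded every pool of i_CAF, which was at 4202 CPM (3747 to 5509.7), and of my_CAF, at 4635 CPM (2391 to 5936). Malign_2 held 1356 CPM (1203, 1347 and 1523 CPM) and Malign_3 349 CPM (239, 306 and 469 CPM), the lowest level of all 21 clusters with at least 50 long-term cells. Vim was thus graded over the malignant clusters, with all pools of Malign_2 above all pools of Malign_3. In the short-term T22 pools 1 to 4 the same gap was seen, with 1236, 1253, 1127 and 1177 CPM in Malign_2 and 242, 244, 252 and 238 CPM in Malign_3.

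Zeb1 and Zeb2 encode zinc-finger repressors of epithelial genes. Zeb1 was 41.5 CPM in Malign_0 (34.0, 42.5 and 47.5 CPM for the lowest, median and highest long-term pool) and 47.4 CPM in Malign_1 (39.3, 48.1 and 65.3 CPM), and overlapped i_CAF at 72.1 CPM (42.7 to 101) and my_CAF at 59.3 CPM (34.1 to 133). The CAF pools fell into 2 sets. In i_CAF, Zeb1 was 42.7 to 54.6 CPM in pools 1 to 4 and 86.1 to 101 CPM in pools 5 to 8. In my_CAF it was 34.1 to 51.6 CPM and 75.7 to 133 CPM in these sets. The summed CAF levels lie between the sets, and the cause was not tested. Some members had these sets in malignant cells too, so a pool range there can span both sets. Snai1 in Malign_0 was 89.8 to 93.4 CPM in pools 1 to 4 and 64.4 to 79.8 CPM in pools 5 to 8. Cdh1 in Malign_3 was 81.6 to 104 CPM and 120.3 to 147 CPM in these sets. Vim overlapped between the sets in both of these clusters. Malign_2 held 26 Zeb1 UMIs (1.11 CPM) and Malign_3 11 (0.697 CPM). Zeb1 was therefore nearly undetected in T22 cells, and in these pools T127 cells lay at the low end of the CAF range. The short-term T127 pools had another order, with 90.1 CPM in Malign_0 and 111 CPM in Malign_1 (108 to 115 over pools) against 72.1 CPM in i_CAF (47.9 to 97.2), so that all Malign_1 pools lay above all i_CAF pools. Zeb2 was lower in T127 cells than in CAFs: 17.8 CPM in Malign_0 (14.4, 17.6 and 20.6 CPM) and 21.9 CPM in Malign_1 (19.0, 21.5 and 27.3 CPM) against 64.1 CPM in i_CAF (49.0, 66.3 and 73.6 CPM) and 159 CPM in my_CAF (114, 159 and 219.8 CPM). No pool of a T127 cluster reached a CAF pool, and i_CAF and my_CAF did not overlap. T22 cells held 31 and 32 Zeb2 UMIs, or 1.32 CPM in Malign_2 and 2.03 CPM in Malign_3.

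Snai1 and Snai2 encode the related repressors Snail and Slug, and they were high in different malignant clusters. Snai1 was 81.4 CPM in Malign_0 (64.4, 84.8 and 93.4 CPM) and 95.2 CPM in Malign_1 (83.6, 94.8 and 103 CPM), with pools overlapping i_CAF at 58.2 CPM (35.7 to 109) and my_CAF at 49.8 CPM (10.3 to 85.1). In i_CAF, Snai1 was 74.7 to 109 CPM in pools 1 to 4 and 35.7 to 41.7 CPM in pools 5 to 8. Snai1 was 2.30 CPM in Malign_2 and 1.20 CPM in Malign_3. Snai2 had the other order, with 77.4 CPM in Malign_2 (67.5 CPM in the lowest and 77.6 CPM in the median long-term pool) and 0.950 CPM (15 UMIs) in Malign_3 of the same tumor line. T127 cells held little of it, at 4.61 CPM in Malign_0 and 4.58 CPM in Malign_1, against 28.3 CPM in i_CAF (18.4 to 48.1) and 56.6 CPM in my_CAF (36.6 to 83.1). All long-term Malign_2 pools lay above all i_CAF pools and overlapped those of my_CAF. The short-term T22 pools 1 to 4 gave 113, 128, 108 and 122 CPM of Snai2 in Malign_2 and 1.62, 1.80, 0 and 0 CPM in Malign_3.

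Twist1 and Twist2 encode helix-loop-helix factors of mesenchyme. Twist1 was 299 CPM in Malign_0 (256, 296 and 349 CPM) and 283 CPM in Malign_1 (235, 279.9 and 306 CPM), against 186 CPM in i_CAF (151, 182 and 238 CPM) and 260 CPM in my_CAF (155, 237 and 432 CPM). All long-term Malign_0 pools lay above all i_CAF pools, whereas those of Malign_1 overlapped i_CAF and those of my_CAF overlapped every cluster named. In the short-term T127 pools Malign_0, at 222 CPM (205 to 242), overlapped i_CAF, at 239 CPM (203 to 258). T22 cells were at 2.42 CPM in Malign_2 and 3.55 CPM in Malign_3. Twist2 was 28.8 CPM in i_CAF (305 UMIs; 18.4, 28.3 and 37.7 CPM) and 14.8 CPM in my_CAF (11 UMIs), whereas the malignant clusters together held 4 Twist2 UMIs in the long-term pools. The 60692267 UMIs of Malign_0 included a single Twist2 UMI, and no cluster of at least 50 cells other than the CAFs exceeded 0.170 CPM. The lowest my_CAF pool was at 0 CPM, so my_CAF overlapped the malignant pools in Twist2, while i_CAF did not.

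In the long-term pools, where both tumors were captured together, T22 malignant cells (Malign_2 and Malign_3 summed, 2259 cells) were compared with T127 malignant cells (Malign_0 and Malign_1, 4603 cells). Of the 9 members with at least 5 CPM on either side, 9 differed by 4-fold or more on log2(CPM + 1), 3 higher and 6 lower in T22. A gene low on one side reaches that level only through the side where it is high, so the count is a description. Over all 10030 genes with that level 18.5% differed by as much, and their median log2 ratio was 0.00 against -3.17 for the members. Epcam was 387-fold higher in T22 (95% interval 352 to 426), Cdh1 137-fold (106 to 179) and Snai2 10.2-fold (9.16 to 11.3). Twist1 was 102-fold lower (84.7 to 124), Snai1 46.7-fold (37.1 to 59.7), Zeb1 46.5-fold (33.7 to 66.2), Cdh2 13.0-fold (10.4 to 16.5), Zeb2 12.1-fold (9.43 to 15.8) and Vim 9.98-fold (9.88 to 10.1). Each of the 9 had the same sign in 8 of 8 pools. The Snai2 ratio rests on Malign_2, at 77.4 CPM. Malign_3, at 0.950 CPM, lay below Malign_0 and Malign_1, at 4.61 and 4.58 CPM. The summed Snai2 ratio thus depends on the mix of the T22 clusters. For Twist1 and Epcam the low sides lay at levels also found in other clusters. Twist1 was 2.42 and 3.55 CPM in Malign_2 and Malign_3, against 4.17 CPM in CD4_Tcm-TCF7 T cells. Epcam was 3.30 and 5.87 CPM in Malign_0 and Malign_1, against 11.4 CPM in endothelial cells. The part of free RNA in these ratios was not tested, and the intervals do not cover it. Markers of other cells differed as well. The fibroblast list summed to 4478 and 4467 CPM in Malign_0 and Malign_1, chiefly Dcn, against 879 and 79.0 CPM in Malign_2 and Malign_3. Ptprc, the gene of the leukocyte protein CD45, was at 3.79 and 3.21 CPM in the T127 clusters and at 5.53 and 8.87 CPM in the T22 clusters. Their part in the differences was not tested.

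The short-term pools held T22 and T127 in separate captures, so there the tumor line and the experiment cannot be told apart. The same 9 members differed by 4-fold or more, 3 higher and 6 lower in T22, where 20.6% of 10654 genes did. Epcam was 624-fold higher (551 to 709), Cdh1 466-fold (365 to 604) and Snai2 25.9-fold (24.0 to 28.0). Vim was 11.8-fold lower (11.7 to 11.9) and Cdh2 10.4-fold lower (8.89 to 12.2). Zeb1 was 170.3-fold lower (119.9 to 251), Snai1 134-fold (99.9 to 183), Zeb2 87.2-fold (58.0 to 138) and Twist1 2328-fold (998 to 7171), the last from 5 UMIs in T22 cells. Here too the Snai2 ratio rests on Malign_2, at 118 CPM, with 0.954 CPM in Malign_3.

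**Figure D2:**
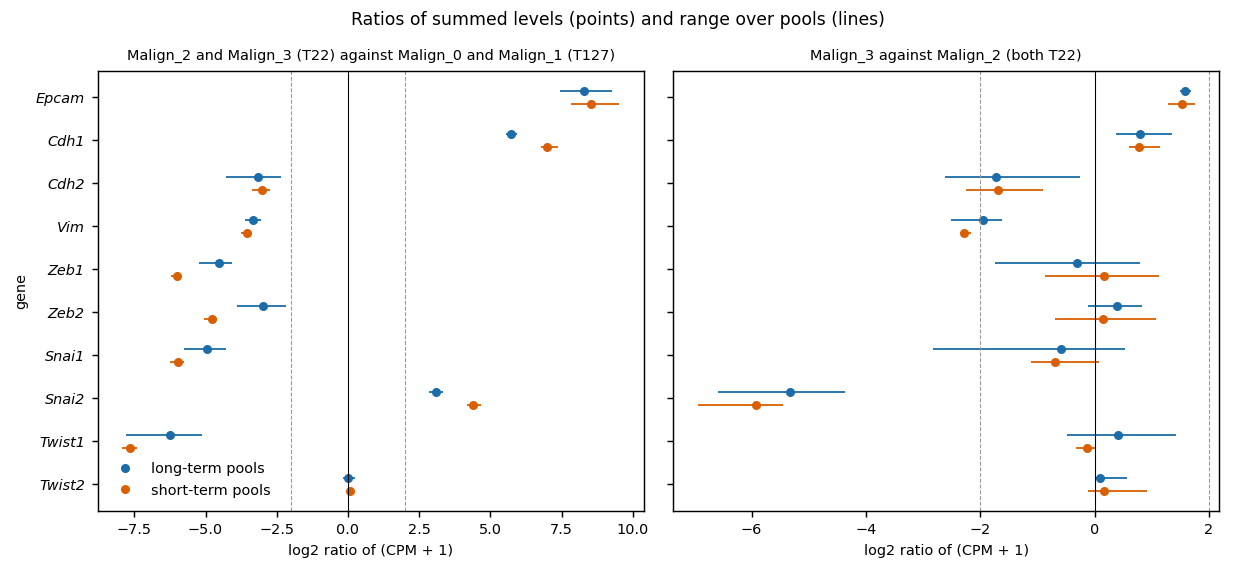
Log2 ratio of CPM + 1 (horizontal axis) for each of the 10 genes (vertical axis), T22 against T127 malignant cells on the left and Malign_3 against Malign_2 on the right. Points are pools summed, lines the range over pools (pairs of a T22 and a T127 pool for the short-term data on the left), blue long-term and orange short-term, and dashed lines mark 4-fold. On the left 9 genes lie outside the dashed lines in both experiments, with Twist2 near 0. On the right Snai2 lies furthest out, at a long-term value of -5.33, and short-term Vim is also past the line, at -2.29.

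T127 malignant cells differed from the CAFs in 2 or 3 members, a share not below that of all genes. Malign_0 and Malign_1 differed from i_CAF by 4-fold or more in 2 of 9 members each, Snai2 and Twist2, both lower, where 16.7% and 16.6% of all genes did. From my_CAF they differed in 3 of 8 and 3 of 9 members, with Zeb2 lower as well, where 17.4% and 18.3% of all genes did. Snai2 was 6.14-fold lower in Malign_0 than in i_CAF (5.20 to 7.25), and Zeb2 8.92-fold lower than in my_CAF (7.31 to 10.8). Twist2 was 1748-fold lower in Malign_0 than in i_CAF, with an interval of 311 to 69253 that rests on the single UMI. Vim was 2.37-fold higher in Malign_0 than in i_CAF (2.34 to 2.39) and Twist1 1.61-fold (1.54 to 1.69), both in 8 of 8 pools, whereas Zeb1 was 1.74-fold lower (1.60 to 1.89) in 8 of 8. The log2(CPM + 1) ratio of Zeb1 ran from -1.21 to -0.04 over the long-term pools. The i_CAF cells of these pools come from both tumor lines, and for Zeb1 and Twist1 the summed levels of Malign_0 and i_CAF had the opposite order in the short-term T127 pools, as given above. With a pseudocount of 10 CPM in place of 1 no member differed from i_CAF by 4-fold in either T127 cluster, and 6.55% (Malign_0) and 6.31% (Malign_1) of all genes did.

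T22 malignant cells differed from the CAFs in most members. Malign_3 differed by 4-fold or more in 10 of 10 members from i_CAF and in 10 of 10 from my_CAF, each time with Epcam and Cdh1 higher and the other 8 lower, where 21.9% and 22.5% of all genes differed. Malign_2 differed in 8 of 10 members from each, Epcam and Cdh1 higher and 6 lower, where 20.5% and 20.2% of all genes did. The members not past 4-fold in Malign_2 were Vim, 3.10-fold lower than in i_CAF (3.05 to 3.14), and Snai2, 2.73-fold higher (2.42 to 3.10), each in 8 of 8 pools. Against my_CAF, Snai2 was 1.37-fold higher (1.01 to 1.91). In the short-term T22 pools Snai2 was 118 CPM in Malign_2 (108 to 128), 87.1 CPM in i_CAF (70.0 to 101) and 78.4 CPM in my_CAF (71.2 to 99.8). Cdh2 in Malign_2 lay at the threshold, 5.13-fold below i_CAF with a log2(CPM + 1) ratio of -2.05, and came to -1.95 without pool 4 and -1.97 without pool 6. With a pseudocount of 10 CPM the ratio came to -0.99. In the short-term T22 pools Cdh2 was 3.46 CPM in Malign_2 (2.54 to 3.88) and 5.36 CPM in i_CAF (2.08 to 9.43), with overlapping pools. My_CAF was at 46.3 CPM there.

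Within T22, of the members that reached 5 CPM, Malign_3 and Malign_2 differed most in Snai2 and Vim. In the long-term pools 4 members reached 5 CPM on either side, and of these Snai2 differed by 4-fold or more, where 8.46% of 9602 genes did. Snai2 was 81.5-fold lower in Malign_3 (49.3 to 146) and Vim 3.89-fold lower (3.78 to 4.01), both in 8 of 8 pools. Cdh2, below 5 CPM in both, was 12.4-fold lower in Malign_3 (4.65 to 46.8) from 4 and 74 UMIs, in 8 of 8 pools. Epcam was 3.02-fold higher (2.97 to 3.07) and Cdh1 1.74-fold higher (1.63 to 1.87), also in 8 of 8 pools. In the short-term T22 pools Snai2 (124-fold lower, 53.0 to 381) and Vim (4.92-fold lower, 4.66 to 5.21) were both past 4-fold, which 10.1% of genes were, with Epcam 2.90-fold and Cdh1 1.72-fold higher in 4 of 4 pools. Vim lay so near the threshold that 2 long-term members passed it without pool 1 or without pool 4, each with a Vim log2 ratio of -2.02.

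Genes of the marker lists also differed between Malign_2 and Malign_3 in the long-term pools. Malign_2 held the basal keratins Krt14 (1734 CPM) and Krt5 (916 CPM) against 927 and 3.10 CPM in Malign_3, and less of the simple-epithelium keratins Krt8 (229 against 1999.8 CPM), Krt18 (87.5 against 3022 CPM) and Krt19 (62.9 against 541 CPM). Acta2, smooth muscle actin, was at 7275 CPM against 22.7 CPM, while the pericyte gene Rgs5 was at 1.28 CPM in Malign_2. The fibroblast list summed to 879 CPM in Malign_2 (748 to 1025 over pools) and 79.0 CPM in Malign_3, of which Dcn gave 772 and 55.4 CPM and Col1a1 10.8 and 3.61 CPM. The macrophage list went the other way, at 100.5 CPM in Malign_2 (78.2 to 129.9) and 179 CPM in Malign_3 (65.4 to 267), with overlapping pools. In the short-term T22 pools its order was reversed, at 50.0 CPM in Malign_2 (37.9 to 71.8) and 30.5 CPM in Malign_3 (16.2 to 45.3). The part of these other transcripts in the differences of the members was not tested.

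Within T127, Malign_1 and Malign_0 were alike in scale. None of 7 members differed by 4-fold in the long-term pools, where 0.409% of genes did, and none of 6 in the short-term T127 pools, where 0.395% did. Cdh2 was lower in Malign_1 than in Malign_0 in 8 of 8 long-term pools (ratio 0.722, 0.664 to 0.785) and in 4 of 4 short-term pools (0.770, 0.730 to 0.812). Zeb2 was higher in 8 of 8 (1.23, 1.12 to 1.34) and in 4 of 4 (1.22, 1.16 to 1.28). Snai1 was higher in 7 of 8 (1.17, 1.12 to 1.22) and in 4 of 4 (1.42, 1.38 to 1.46).

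To ask whether Epcam and Vim were found in the same cells, every malignant cell was thinned to 3000 UMIs, a depth that all of them reached. Both genes were found in 70.9% of long-term Malign_2 cells (958 of 1352; exact binomial interval 68.4 to 73.3; 60.2 to 77.3% over pools), Epcam alone in 10.9%, Vim alone in 17.7% and neither in 0.518%. In Malign_3 both were found in 42.2% (39.0 to 45.5; 37.9 to 48.4% over pools), with Epcam alone in 57.0% and Vim alone in 0.331%. UMIs of both genes were thus found in most Malign_2 cells and in a smaller share of Malign_3 cells. No cluster analysed lacked Vim, so its background share is not known, and the part of free Vim RNA in these shares was not tested. The short-term T22 pools gave 68.2% (66.0 to 70.4) for Malign_2 and 34.9% (28.6 to 41.6) for Malign_3.

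T127 cells were nearly all Vim alone. Both genes were found in 0.890% of long-term Malign_0 cells (0.577 to 1.31), 0.725% of Malign_1, and 0.119% and 0.254% in the short-term T127 pools. An Epcam UMI of any kind was found in 0.890% of thinned long-term Malign_0 cells. Among CD4_Tcm-TCF7 T cells the share was 8.77% (45 of 513 cells deep enough, with 623 shallower cells left out). Whether the Malign_0 share reflects expression was not tested. Before thinning the shares were 4.98% and 8.45%, at median depths of 19775 and 2757 UMIs per cell. With depths so unlike, the T cell share cannot decide what the Malign_0 share is.

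Cell depth and Ptprc transcript are given beside the shares, and the part of droplets with more than 1 cell was not tested further. Long-term Malign_2 cells with both had a median of 15637 UMIs before thinning, against 16743 with Epcam alone and 16183 with Vim alone. A Ptprc UMI was found in 6.05%, 10.1% and 5.02% of them, in that order. Cells with both had the lowest median depth of these classes, and their Ptprc share lay between those of the others. In Malign_3 the medians were 15942 UMIs with both and 14612 with Epcam alone, and the Ptprc shares 9.66% and 6.19%.

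**Figure D3:**
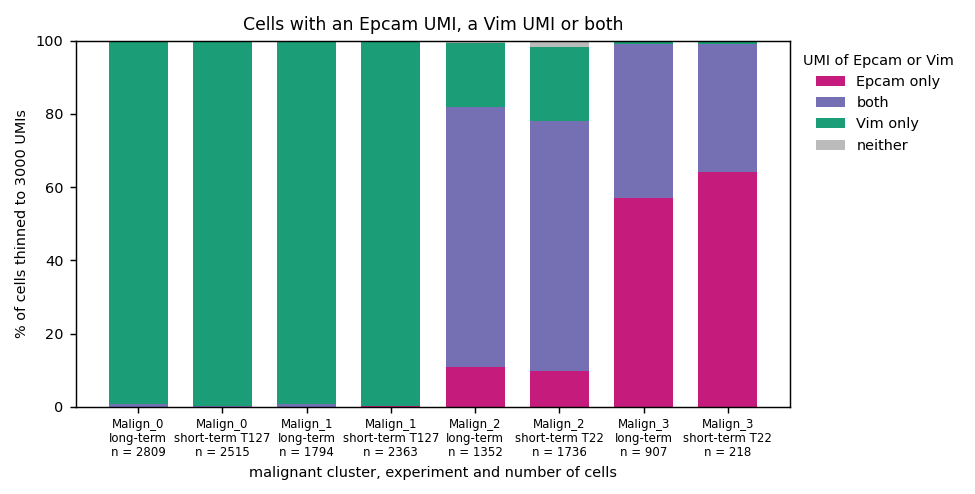
Percent of cells thinned to 3000 UMIs (vertical axis) with an Epcam UMI, a Vim UMI, both or neither, for each malignant cluster and experiment (horizontal axis, with the number of cells). Cells with both make up 70.9% of long-term Malign_2 and 42.2% of long-term Malign_3, and the T127 clusters are almost entirely Vim alone.

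Single-cell detection of the factors followed the summed levels. Of thinned long-term cells, Twist1 was found in 57.2% of Malign_0 (55.4 to 59.0) and 0.518% of Malign_2 (0.208 to 1.06). Snai2 was found in 19.7% of Malign_2 (267 of 1352 cells), 0.441% of Malign_3 and 1.50% of Malign_0. Among CD4_Tcm-TCF7 T cells the shares were 1.36% for Twist1 and 0 of 513 for Snai2, which allows up to 0.585% (3 cells). The Malign_2 share of Twist1 lay below the T cell share and the Malign_3 share of Snai2 within that limit. Whether either reflects expression was not tested. Median depths before thinning were 2757 UMIs in these T cells, 15779 in Malign_2 and 15056 in Malign_3. With depths so unlike, the T cell shares cannot decide the question. Without thinning, 97.2% of Malign_0 cells held a Twist1 UMI and 58.4% of Malign_2 cells a Snai2 UMI.

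The 3 experiments were not captured together, so time under treatment, depth and capture cannot be told apart between them, and their levels are set side by side. Zeb1 in Malign_0 was 41.5 CPM in the long-term pools and 90.4, 89.6, 90.2 and 90.1 CPM in the short-term T127 pools 1 to 4. Zeb2 in Malign_0 was 17.8 CPM against 34.3, 33.7, 34.1 and 35.6 CPM. In both genes all short-term pools lay above all long-term pools, and the same held for Zeb2 in i_CAF, at 64.1 CPM against 142, 139, 120.4 and 124 CPM in the short-term T22 pools. Twist1 in Malign_0 went the other way, at 299 CPM against 205, 216, 242 and 227 CPM.

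The trace levels of T127 genes in T22 cells differed too. Twist1 in Malign_2 was 2.42 CPM (57 UMIs; pools 0.354 to 7.81) in the long-term pools, which also held T127 cells, and 0.105 CPM (5 UMIs) in the short-term T22 pools, which did not. In Malign_3 it was 3.55 CPM (56 UMIs) against 0 UMIs, which allows up to 0.572 CPM (3 UMIs). Epcam in Malign_0, the reverse case, was 3.30 CPM in the long-term pools and 0.893 CPM in the short-term T127 pools. The part that T127 cells in the same pools had in these values was not tested.

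Over the 21 clusters with at least 50 long-term cells, the members were not confined to malignant cells and CAFs. Zeb1 was highest in endothelial cells, at 136 CPM (54.9, 156 and 174 CPM for the lowest, median and highest pool), with pools that overlapped the CAFs. Zeb2 was high in macrophage clusters, at 112 CPM in Macro-M2 and 92.7 CPM in Macro-M1, between my_CAF and i_CAF, and neighbours in that order overlapped. Its antisense gene Zeb2os has a row of its own in the count tables. The kit keeps the strand, but the strand setting of the counting is not given in the sources used here, so how reads were divided between these genes is uncertain. Vim ran from 349 to 9947 CPM and was found in every cluster. Twist1 had a gap in its order, with 186 CPM or more in T127 and CAF clusters and at most 18.1 CPM (CD14-PF4) in the others, and the pools of i_CAF and CD14-PF4 did not overlap.

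**Figure D4:**
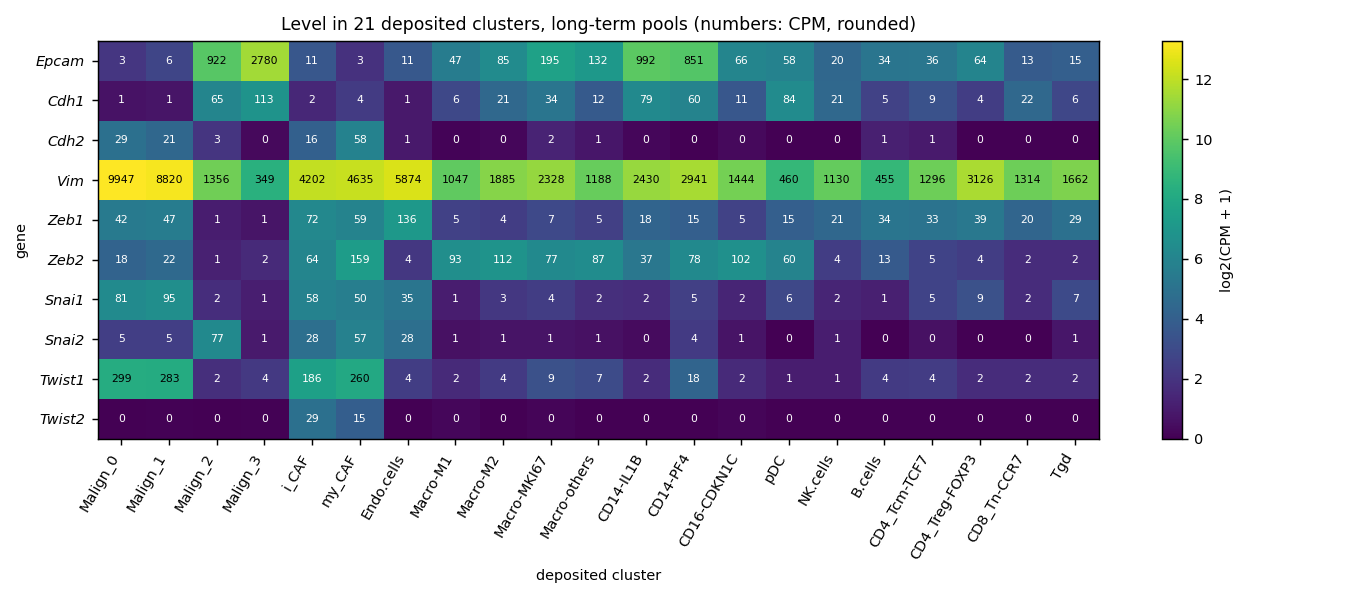
Long-term level of the 10 genes (vertical axis) in the 21 deposited clusters with at least 50 cells (horizontal axis), colored by log2(CPM + 1), with the CPM printed in each cell rounded to whole numbers. Epcam is high in Malign_2 and Malign_3 and in CD14-IL1B and CD14-PF4, Zeb2 in CAFs and macrophage clusters, and Twist2 is above 0 after rounding only in i_CAF and my_CAF.

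For the members other than Zeb1, the genes with the most similar pattern over these 21 clusters were looked for among 11794 genes by Pearson's r of log2(CPM + 1). The clusters share pools and differ in depth, so r is a description. Twist1 was closest to Shox2 (0.983), Wnt5a (0.977) and Prrx1 (0.967), and Twist2 to Smarca1 (0.997), En1 (0.997) and Nnmt (0.996). Snai2 was closest to Afap1l2 (0.942), Col4a2 (0.932) and Adamts9 (0.931), Snai1 to Zzz3 (0.933), Map1b (0.923) and Cd109 (0.917), and Zeb2 to Zeb2os (0.923), Ifi207 (0.895) and Slc8a1 (0.885). Epcam was closest to Aldoc (0.943), Lsr (0.934) and Plppr4 (0.909), and Cdh1 to Pdk3 (0.867), Ctnnd2 (0.867) and Epcam (0.830). Cdh2 was closest to Nr2f1 (0.941), Sept5 (0.936) and Ttc26 (0.936), and Vim to Rbms1 (0.931), Fam78b (0.892) and Capn2 (0.875). Among the members themselves Twist1 and Cdh2 had the highest r, 0.93, followed by Snai1 and Twist1 at 0.85, while Zeb1 and Epcam had the lowest, -0.74.

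Other epithelial genes went with Epcam and Cdh1. Of 18 epithelial transcription, splicing and adhesion genes, 16 reached 5 CPM on either side of the long-term comparison of T22 with T127, and these were 4-fold or more higher in T22, where 18.5% of all genes differed in either direction. Genes of this list that are nearly absent from T127 cells reach 5 CPM only through T22, so the filter itself favours this count. Ehf, an epithelial transcription factor, stood at 564 CPM for Malign_2, 1257 CPM for Malign_3 and 2.13 CPM for Malign_0. The desmosome gene Dsp was at 217, 128 and 0.824 CPM and the protease inhibitor gene Spint2 at 378, 805 and 1.25 CPM. Within T22, 6 of 17 were 4-fold or more higher in Malign_3 than in Malign_2 (Esrp2, Ovol1 and Elf3 among them) and 0 lower, but Dsp was lower in Malign_3. Over all genes 8.46% differed by 4-fold in either direction in that comparison.

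The catenins link cadherins to the cytoskeleton and were expressed in both tumors. Of 4, Jup, the gene of plakoglobin, differed by 4-fold between T22 and T127 long-term cells, a share near the 18.5% of all genes, and was higher in T22 (113 CPM in Malign_2, 177 CPM in Malign_3 and 27.9 CPM in Malign_0). Ctnnb1 was at 260.4, 424 and 97.6 CPM and Ctnna1 at 126, 137 and 229 CPM in those clusters. Other cadherins differed between clusters. Cdh3, the gene of P-cadherin, was at 76.7 CPM in Malign_2 against 2.34 CPM in Malign_3, Cdh13 at 81.8 CPM in Malign_0 and 67.0 CPM in Malign_1 against under 1 CPM in T22, and Cdh11 at 178 CPM in i_CAF against 5.39 CPM in my_CAF.

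Of 20 mesenchymal genes outside the members, 14 reached 5 CPM in the long-term comparison of T22 with T127, with 6 lower by 4-fold or more in T22 (Fn1, S100a4, Prrx1, Itga5, Axl and Hmga2) and 2 higher (Sparc and Postn), where 18.5% of all genes differed in either direction. Fn1, the fibronectin gene, was at 2569 CPM in Malign_0, 36.5 CPM in Malign_2 and 5678 CPM in i_CAF. S100a4 was at 4897 CPM in Malign_0 and 553 CPM in i_CAF, so T127 cells exceeded the CAFs. Sparc, a matrix protein gene, had the order of Snai2 in the tumors, at 4836 CPM in Malign_2, 369 CPM in Malign_3 and 629 CPM in Malign_0. The median log2 ratio of the mesenchymal list was -1.84 for T22 against T127, with 0.00 over all genes, and 0.25 for Malign_3 against Malign_2, with 0.02 over all genes.

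The results were recomputed with all copies of the shared barcodes and without long-term pools 1, 2 and 3, which share them. The number of members past 4-fold was the same in all 11 long-term comparisons in either case. CPM sets each cluster's UMIs to a common total, so a cell with more mRNA in all and less of a gene cannot be told from one with less of that gene alone.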

How the data were processed

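Single-cell libraries of 16 pools of tagged tumors were made with a 10x Genomics 3′ kit. Per the methods and the submitters' processing notes, the authors aligned reads to GRCm38 with Cell Ranger 6.0.0, introns included, left out cells with few genes or many mitochondrial reads, removed doublets with Scrublet, and deposited raw UMI counts of 32285 genes per cell with a cluster name. Doublets were not called again here. Tables of normalized values for fewer genes were not used. The strand setting is not given in the sources used here.

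UMIs were summed here per deposited cluster and experiment as CPM, each shared long-term barcode at its deepest copy. Levels carry exact Poisson, ratios conditional binomial and shares Clopper-Pearson intervals at 95%, for counting error only. A count of 0 allows up to 3 counts. Because 3′ counts with introns depend on a gene's structure, levels of different genes or lists are not to be compared with each other. A 4-fold difference on log2(CPM + 1), among genes with at least 5 CPM in either group, was the size rule, and was tested on simulated data. Shares of cells with a UMI used a random draw of 3000 UMIs from every cell that had as many.

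The members, gene lists, marker lists and rules were chosen with earlier results of these data known. All 10 members are named, with the 3 genes most similar to each (at least 10 CPM in a cluster; those of Zeb1 are not reported here), and the 3 genes of each list with the highest level. A few others, such as Krt8, Krt18 and Dcn among the markers, were named after their values were seen. Alternatives were a pseudocount of 10 CPM, a 2-fold rule, no filter, all barcode copies, leaving out pools, leaving out the 5% of cells with most UMIs, pool medians, means over cells, other thinning depths, Cdh1 for Epcam and, added after seeing the data, leaving out cells with a Ptprc UMI and leaving out each pool for the shares of cells with both genes. A planned search of promoter windows for E-box letters is not analysed here, since no mouse sequence was used. The work used Python (3.11.15) with the packages pandas (2.3.3), numpy (2.4.6), matplotlib (3.10.9) and scipy (1.17.1).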

Additional observations from a re-analysis of the deposited data

Results flagged for a closer look

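A pool was looked at again where it lay far from the other pools of its group by Dixon's ratio, which flags about 1 in 20 groups by chance; 5 of 82 groups of pools were flagged. Cdh1 in Malign_2 was 82.0 CPM in long-term pool 7, next to 67.9 CPM in the nearest pool. Cdh1 in Malign_3 was 359 CPM in short-term T22 pool 2, next to 263 CPM. Vim in i_CAF was 5509.7 CPM in long-term pool 3, next to 4464 CPM, and this pool is among those that share barcodes. Snai2 in my_CAF was 99.8 CPM in short-term T22 pool 1, next to 73.4 CPM. Epcam in Malign_0 was 2.38 CPM in short-term T127 pool 3, next to 0.475 CPM. Of 20 contrasts set beside each other between the long-term and the short-term pools, 0 had every pool on opposite sides. Comparisons in the short-term pools were between malignant clusters only. The order of Malign_0 and i_CAF in summed Zeb1 and Twist1 differed between experiments, as given above.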

How the results depend on the processing

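No member ratio changed sign where it was past 4-fold, under any alternative run. With a pseudocount of 10 CPM, 0 members differed by 4-fold between Malign_0 and i_CAF and 0 between Malign_1 and i_CAF, against 2 in each as reported; with a 2-fold rule these were 5 and 4, where 33.1% and 32.0% of all genes differed by 2-fold. For Malign_3 against Malign_2 in the long-term pools the count was 1 as reported, 3 with a 2-fold rule (20.0% of all genes), and 2 without the 5% of cells with most UMIs, with the median of the pools, with the mean over cells and without cells with a Ptprc UMI. Leaving out 1 pool at a time it ran from 1 to 2.

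The share of cells with both Epcam and Vim moved with depth by construction. Thinned to 2000 UMIs it was 57.8% in Malign_2 and 32.3% in Malign_3 of the long-term pools and 52.9% in Malign_2 of the short-term T22 pools. At 5000 UMIs it was 88.1% and 55.2%, 83.0% and, in short-term Malign_3, 45.4%, and 1.96% in long-term Malign_0. Without the 5% of cells with most UMIs long-term Malign_2 gave 73.3%. With Cdh1 in place of Epcam, which has fewer UMIs, it was 17.3% and 11.9% in long-term and 33.2% and 20.6% in short-term Malign_2 and Malign_3, 0.178% and 0.279% in long-term Malign_0 and Malign_1, and 0.0423% in short-term Malign_1. Of 920 log2 ratios of members under the other alternatives 82 moved by more than the spread over pools, and of 1040 with 1 pool left out 0 did; apart from depth, the causes were not tested. No paired analysis was possible because the results come from no test; ratios within pools were computed, and their signs stand beside the summed ratios. Counting error limits Twist2, Zeb1, Zeb2, Snai1, Twist1 and Cdh2 in T22 cells, which rest on few UMIs.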

Other observations

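Epcam was also high in some myeloid clusters, a pattern picked after its values were seen. In CD14-IL1B it was 992 CPM in the long-term pools (967 to 1017; 832, 1010 and 1381 CPM for the lowest, median and highest of 8 pools), 636 CPM in the short-term T127 pools (452, 518, 774 and 748 CPM in pools 1 to 4) and 167 CPM in the short-term T22 pools (227, 113, 185 and 146 CPM). In the short-term T127 pools this was above every malignant pool, since Malign_0 and Malign_1 stood at 0.893 and 2.04 CPM. Among cells thinned to 3000 UMIs, 51.6% of long-term CD14-IL1B cells held an Epcam UMI (46.8 to 56.3), against 8.77% of CD4_Tcm-TCF7 T cells. Beside a macrophage list that summed to 6419.7, 1894 and 2567 CPM in the long-term, short-term T22 and short-term T127 pools, the cluster held the dendritic cell gene Xcr1 at 186, 575 and 312 CPM and Ccr7 at 105, 208 and 254 CPM. Krt8 was at 12.3, 3.57 and 11.7 CPM and Krt14 at 7.20, 13.9 and 0 CPM there. CD14-PF4, with 98 long-term cells and Epcam at 851 CPM (0 to 1347 over pools), differed in this respect, since Krt8 was at 392, 275 and 96.1 CPM and Krt14 at 328, 449 and 0 CPM in the same order of experiments. Its Ccr7 was at 394, 456 and 280.1 CPM and its Xcr1 between 2.64 and 5.49 CPM. Epcam in CD14-PF4 was 555 CPM in the short-term T22 pools and 509 CPM in the short-term T127 pools. The part of keratin-bearing cells or free RNA in its Epcam level was not tested.

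Cdh1 was found in myeloid clusters of the short-term T127 pools too, at 247 CPM in Macro-MKI67 (226 to 271 over pools), 222 CPM in pDC and 135 CPM in Macro-M2 (126 to 139), while Malign_0 and Malign_1 held 0.436 and 0.293 CPM. Epcam was 427 CPM in Macro-MKI67 (313 to 657) and 144 CPM in Macro-M2 (117 to 161) of these pools. In the short-term T127 pools the Epcam and Cdh1 levels of these myeloid clusters were thus above those of the malignant clusters.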
